A study of Drosophila melanogaster with 3 samples.

Results

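The unassigned sequence U carried 615 of the 4751 dH1K27me2 peaks in the deposited list, taken as every peak whose sequence name is exactly U, with the larger sequence Uextra kept apart. dH1K27me2 is the linker histone dH1 of Drosophila melanogaster dimethylated at lysine 27. U is a sequence of build dm3, the genome build that the submitters' processing notes name, in which scaffolds that could not be placed on a chromosome are joined one after another. No score, width or other measured value was used to choose the peaks.

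The mark was mapped by ChIP-seq, the sequencing of DNA that an antibody precipitates with chromatin, in wild-type S2 cells, an established cell line derived from Drosophila embryos. It had 2 immunoprecipitation samples, both made with a home-made rabbit antibody against dH1K27me2, and 1 input sample of the same cells with no antibody. The labels name no drug or mutation, and all samples come from the same line, so the peaks describe S2 chromatin and not a tissue. The authors merged the immunoprecipitation libraries before comparing them with the input, so there is 1 value per peak and no replicate error. No difference below could be tested across samples, and the list gives no read depth. Intervals are 95% intervals for the counting of peaks or windows and do not cover variation between samples. They also treat peaks and windows as independent. The variance of the counts per 100 kb window on U was 3.00 times their mean, so peaks clustered and the intervals are likely too narrow.

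Linker histones bind the DNA that enters and leaves the nucleosome and help to fold chromatin. Drosophila has a single linker histone in its somatic cells, where it is needed for the compact state of heterochromatin and for keeping transposable elements silent. Pericentromeric heterochromatin is rich in repeats, which is why much of it ended up in unplaced scaffolds, in the Het sequences (heterochromatic scaffolds assigned to a chromosome) or in Uextra (a longer chain of small leftover scaffolds), and not in the assembled arms. Positions on U are therefore positions in a chain of scaffolds, and neighbours on U need not be neighbours in the nucleus. The joins between scaffolds were not used here.

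Peaks were sparser on U than on the 6 Het sequences as a pool and denser than on the pooled arms. Up to the right edge of its last peak U measured 10.0 Mb and held 61.3 peaks per Mb (counting interval 56.5 to 66.3). The Het sequences held 118.1 peaks per Mb and the arms with chromosome 4 held 6.47, so that U stood at 0.519 times the Het density and 9.47 times that of the arms. Against the arms outside the 5 Mb next to the centromere, without chromosome 4, the ratio was 48.1. No ratio was computed for the 5 Mb next to the centromere, where arm peaks were denser. Against that part of the arms the excess of U is smaller than either ratio. Whole arms ran from 1.28 peaks per Mb on X to 12.3 on 2R. Among the Het sequences YHet went the other way, with 29.1 peaks per Mb and 5.78% of its bases covered, on 4 peaks. Bases inside peaks summed to 1558 kb, or 15.5% of U, against 39.0% for Het and 2.03% for the arms. In bases covered U was therefore at 0.398 times the Het level, a larger shortfall than in the number of peaks. Uextra held 80.8 peaks per Mb, more than U, over 11.5% of its bases, less than U.

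In 100 kb windows, counted by the midpoint of each peak, U ranged from 0 to 19 peaks with a median of 5. The Het sequences had a median of 12 and a highest count of 22, and the arms a median of 0 and a highest count of 22. Of the 101 windows of U, 11 held no peak (10.9%, Wilson interval 6.19 to 18.5%), against 0 of 91 windows on the Het sequences (interval 0 to 4.05%) and 991 of 1164 on the arms (85.1%, interval 83.0 to 87.1%). The Het windows end at the last peak of each sequence, which leaves out any empty end. The empty share of U depended on the window, at 19.4% for 50 kb and 1.96% for 200 kb. At the other extreme, 23 of the 101 windows of U held 10 or more peaks, against 60 of 91 on Het and 35 of 1164 on the arms. Windows of 10 to 14 peaks made up 19.8% on U, 38.5% on Het and 1.55% on the arms. Those of 15 or more made up 2.97%, 27.5% and 1.46% in the same order.

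**Figure D1:**
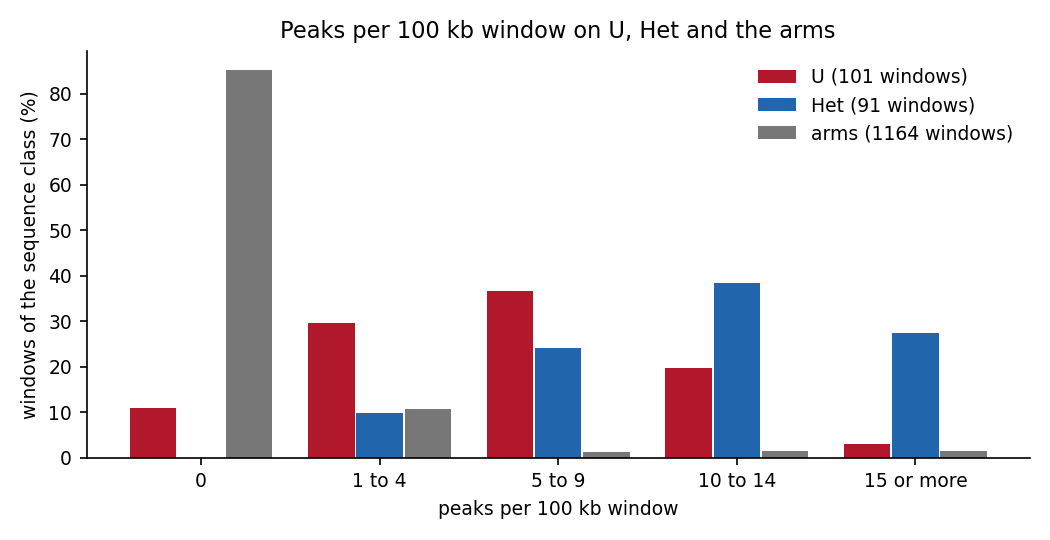
Share of 100 kb windows (y axis, percent of the windows of each sequence class) by the number of peak midpoints they hold (x axis), for U (101 windows), the Het sequences (91) and the arms with chromosome 4 (1164). The commonest class on U is 5 to 9 per window, with 36.6% of its windows, and on Het 10 to 14 with 38.5%, and 85.1% of arm windows are empty.

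The windows of U were less even than those of the Het sequences. The variance of the counts was 3.00 times their mean on U, 1.98 times on Het, 2.20 times on Uextra and 10.5 times on the arms. The fullest 10% of the windows, 10 of 101, held 141 of the 615 peaks, or 22.9% (Wilson interval 19.8 to 26.4%). On Het the fullest 10% held 17.0% of the peaks, on Uextra 20.4% and on the arms 92.4%. By this measure U lay nearest to Uextra, then to the Het sequences, and far from the arms, where most windows were empty.

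The fullest stretches lay at the left end of U. The window with the most peaks, U:500001-600000, held 19, with a median score of 193.0 and 49.7% of its bases inside peaks. U:300001-400000 held 17 peaks, which covered 54.0% of it, and U:100001-200000 held 15, which covered 65.1%. The other windows among the 5 fullest lay far to the right, and there a similar number of peaks covered much less. U:7600001-7700000 held 14 peaks over 24.7% of its bases, and U:8400001-8500000 held 14 peaks over 22.4%. These dense windows on the right were made of narrower peaks, with median widths of 2005 and 1500 bp, against 2484, 2308 and 3212 bp in the 3 windows on the left.

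Empty stretches gathered in the middle of U. The longest stretch with no peak ran over 368 kb, U:4817433-5185343, and the next over 316 kb, U:4194207-4510190. The third, of 256 kb, lay near the left end at U:637265-893750, directly after the fullest run of peaks on U. The fourth covered 253 kb, U:5214224-5466806, and the fifth 199 kb, U:3685335-3884143. Together these 5 stretches took up 13.9% of U, and 4 of them lay between 3 and 6 Mb. On the Het sequences the longest distance between neighbouring peaks was 126 kb and on Uextra 123 kb, shorter than each of the 5. Assembly gaps and sequence to which reads cannot be mapped were not used here, so an empty stretch is one with no called peak, not one shown to lack the mark.

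**Figure D2:**
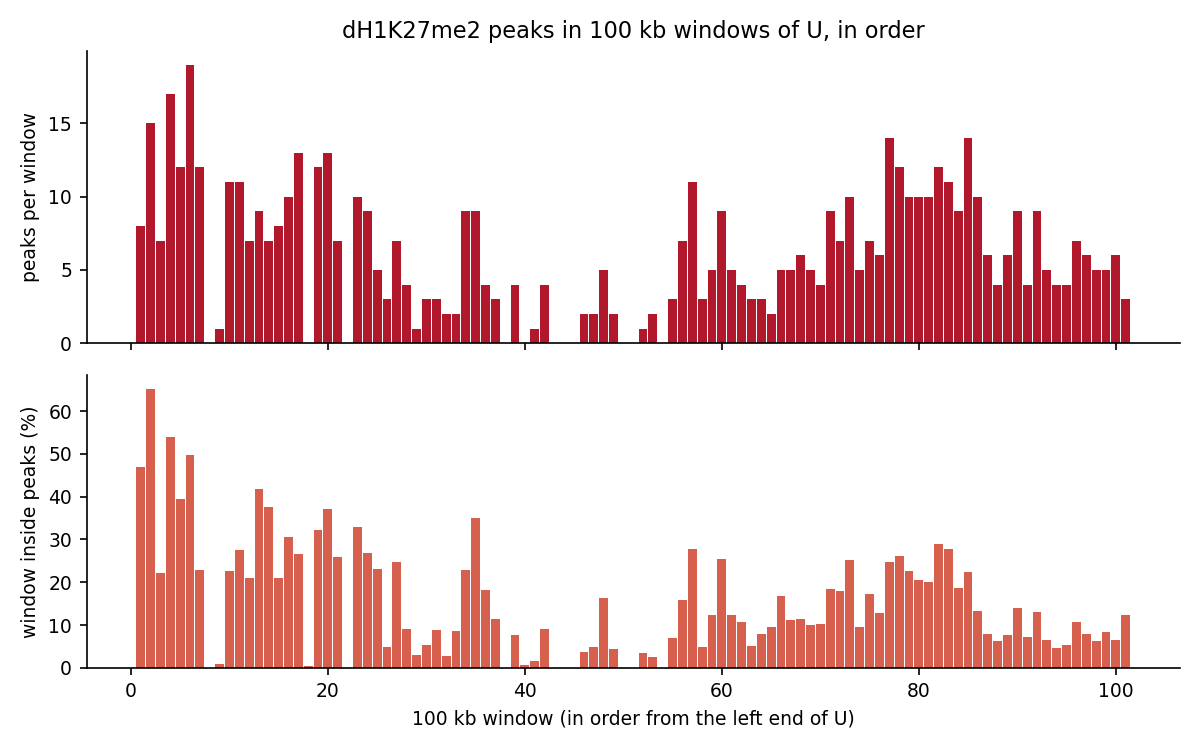
Peaks per 100 kb window (upper panel) and percent of the window inside peaks (lower panel) along U, with windows in order from the left end (x axis, window number; the last window is partial). The left windows reach 19 peaks and 65.1% covered, the windows between 3 and 6 Mb include 8 of the 11 empty ones, and no window past 6 Mb is empty, while none there exceeds 28.9% covered.

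Counted in stretches of 1 Mb from the left end, U began at 102 and 90 peaks, thinned to 49, 36 and 16, and filled again to 41, 42, 90 and 91 before it ended at 55, with 3 more peaks in the short remainder past 10 Mb. The percent of bases inside peaks followed at 32.4, 27.6, 15.5, 11.6 and 3.99 over the first 5 stretches, then 9.96, 10.5, 19.5, 16.7 and 7.67. The first stretch, at 102 peaks per Mb, lay within the range of the 4 autosomal Het sequences, 96.7 to 136.8 peaks per Mb. The low end of that range was 2LHet, with 35 peaks on 0.362 Mb. On 2RHet, 3LHet and 3RHet the density was 112.1, 114.9 and 136.8, all above the first stretch. The covered share of the stretch was below the range of the 4, 36.7 to 42.4%. The fifth stretch, at 16 peaks, was the sparsest full stretch. It held more peaks per Mb than the arms as a whole, where 85.1% of windows were empty. Arm peaks were denser next to the centromere. The stretch was not compared with that part, so it is not shown to be denser than all arm sequence.

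Past 6 Mb the counts per window were more even than before it, a split chosen after the counts were seen. The 41 windows to the right held 2 to 14 peaks, with a median of 6 and a variance of 1.42 times the mean. The 60 windows to the left held 0 to 19, with a median of 4 and a variance of 4.25 times the mean. All 11 empty windows lay on the left. Share of bases covered ran from 4.63 to 28.9% on the right and from 0 to 65.1% on the left, while the medians, 11.5% and 11.9%, were close together.

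Widths on U ran from 576 to 12279 bp, with a median of 1939 bp (interval 1819 to 2056 bp) and an interquartile range of 1398 to 2892 bp. The median was 2541 bp on the pooled Het sequences (interval 2359 to 2646 bp) and 2269 bp on the pooled arms (interval 2101 to 2438 bp), so the interval of U lay below both. Single arms differed, with 1682 bp on chromosome 4, 1707 bp on 3R, 2054 bp on 3L, 2191 bp on 2R, 3235 bp on X and 3819 bp on 2L. The 4 autosomal Het sequences had 2280 to 3709 bp, and XHet and YHet, with 2 and 4 peaks, had 1437 and 1086 bp. On Uextra the median was 1236 bp, below U. On U 313 peaks (50.9%) were 1 to 2 kb wide, 146 were 2 to 3 kb and 60 were 3 to 4 kb. Only 51 peaks (8.29%, Wilson interval 6.36 to 10.7%) reached 5 kb, against 17.9% on Het (interval 15.6 to 20.3%) and 19.2% on the arms (interval 16.5 to 22.1%). Peaks narrower than 1 kb numbered 11 on U (1.79%), 4 on Het (0.384%), 0 on the arms and 370 on Uextra (15.8%).

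The deposited score of each peak is the authors' value and was used only to rank and describe. Its range over the list is that of the score written by MACS 1.4, a peak caller named in the submitters' processing notes, which is 10 times the negative log10 of a p-value. On U it ran from 50.10 to 2342, with a median of 161.3 (interval 145.6 to 171.8). The median was 225.8 on the Het sequences (interval 208.6 to 249.0) and 180.3 on the arms (interval 161.9 to 198.4), so U lay below Het and its interval overlapped that of the arms. Single arms ran from a median of 93.1 on 3R to 326.0 on 2L, on either side of U. Scores of 400 or more were reached by 18.9% of U peaks, against 30.2% of Het peaks and 25.4% of arm peaks. Scores of 800 or more were reached by 38 U peaks (6.18%), against 108 Het peaks (10.4%) and 70 arm peaks (9.32%). U supplied 21 of the 100 highest-scoring peaks of the whole list, 14.2% of the highest 500 and 12.9% of all peaks, where the list as a whole includes the 2343 peaks of Uextra, of which 0.982% scored 800 or more.

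Narrower and lower-scoring peaks took over towards the right end of U. Median width was 2325, 2310, 2246 and 2374 bp in the first 4 stretches of 1 Mb and 1978, 1802, 2481 and 2058 bp in the next 4. It was 1575 bp in the ninth stretch and 1255 bp in the tenth. Median score was 172.5, 207.0, 203.3, 183.2, 218.1, 145.4, 189.5 and 173.2 over the first 8 stretches, then 105.5 and 82.6. Both measures were thus roughly level over the first 8 Mb and lower in the last full stretches, where 46.2% and 60.0% of peaks scored under 100. The widest peaks went earlier. The first 4 Mb held 45 of the 51 peaks of 5 kb or more, and the part right of 5 Mb held 5 of them among 322 peaks (1.55%), against 46 among 293 peaks (15.7%) in the left 5 Mb.

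**Figure D3:**
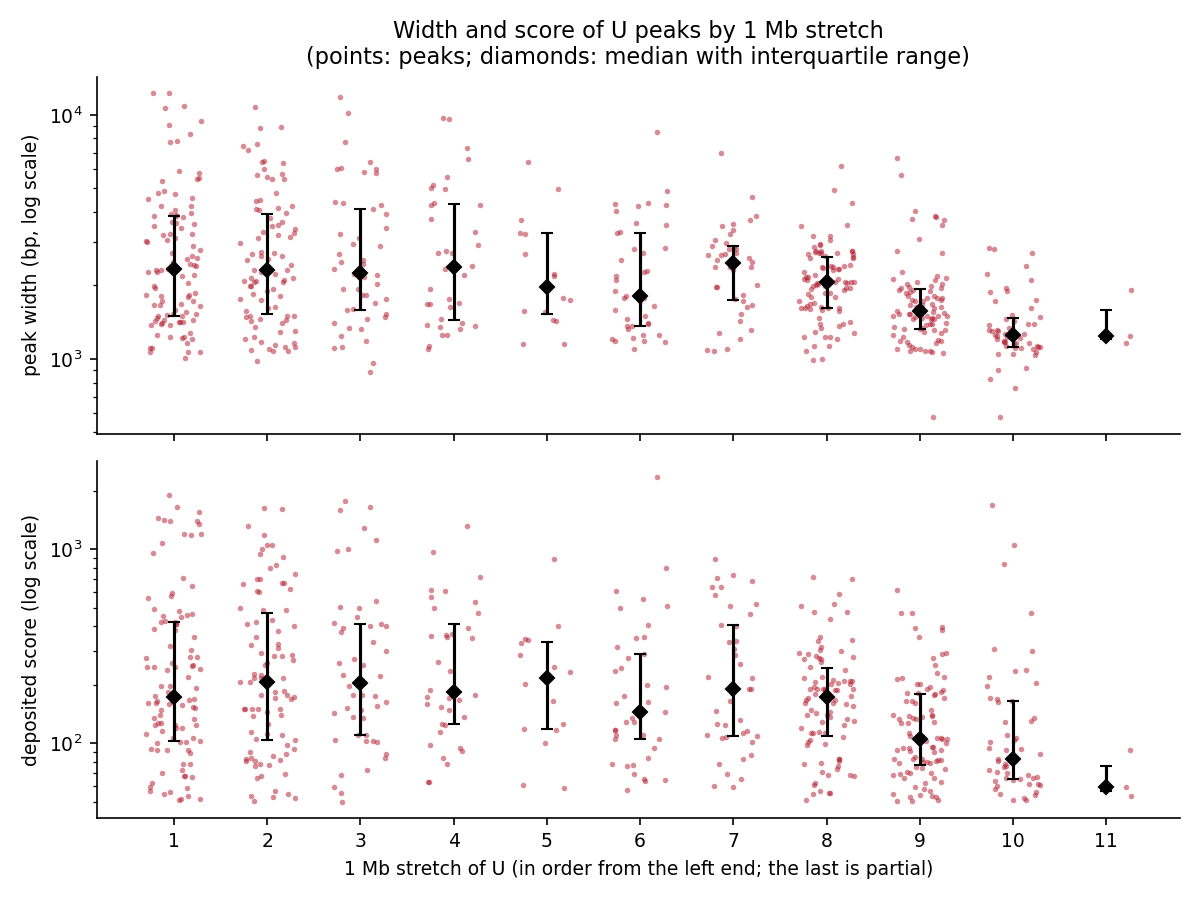
Width in bp (upper panel) and deposited score (lower panel) of the 615 U peaks, both on log axes, by stretch of 1 Mb in order from the left end (x axis; the eleventh is partial and holds 3 peaks); points are single peaks, spread sideways for visibility, and diamonds with bars are medians with interquartile ranges. Peaks above 5 kb thin out after the fourth stretch, and both medians are lowest from the ninth stretch on, at 1575 bp and 105.5 in the ninth and 1255 bp and 82.6 in the tenth.

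At like score, peaks on U were almost as wide as those on the Het sequences and the arms. Among peaks scoring 50 to below 100 the median width was 1273 bp on U, 1284 bp on Het and 1323 bp on the arms. Between 100 and 200 it was 1819 bp on U, 1858 bp on Het and 1907 bp on the arms, and between 200 and 400 it was 2703, 2800 and 2849 bp in the same order. The gap was largest between 400 and 800, at 3717 bp on U, 4296 bp on Het and 4856 bp on the arms, a ratio of 0.865 to Het and 0.765 to the arms. For scores of 800 or more the medians were 5912 bp on U, 6317 bp on Het and 6282 bp on the arms. The difference from Uextra grew with score. U peaks were 1.14 times as wide as those of Uextra between 50 and 100 and 1.33 times between 100 and 200, the classes that hold 1834 of the 2343 Uextra peaks. They were 1.95 times as wide between 200 and 400, 2.23 times between 400 and 800 and 2.25 times at 800 or more, where the Uextra median was 2625 bp.

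**Figure D4:**
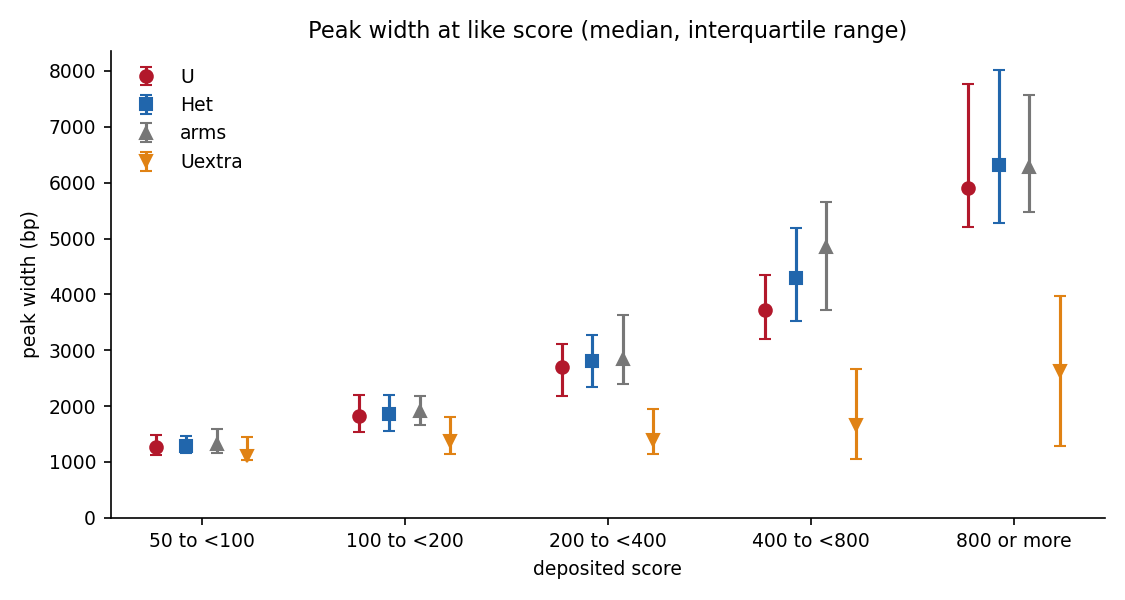
Peak width in bp (y axis) by class of deposited score (x axis) for U, the Het sequences, the arms with chromosome 4, and Uextra; symbols are medians and bars interquartile ranges. U follows Het and the arms from 1273 bp in the lowest class to 5912 bp in the highest, and falls furthest behind them between 400 and 800, while Uextra reaches 2625 bp in the highest class.

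The right and left parts of U also had like widths at like score below 400. Right of 5 Mb the median was 1273 bp for scores of 50 to below 100, against 1262 bp in the left 5 Mb, and 1861 bp against 1806 bp between 100 and 200. It was 2506 bp on the right and 2755 bp on the left between 200 and 400, and 3516 bp and 3811 bp between 400 and 800. At 800 or more the right part had only 5 peaks, with a median of 1302 bp, against 33 peaks with a median of 6011 bp on the left. The 5 were peaks of 1156, 1188 and 1302 bp in the tenth stretch and of 3074 and 8471 bp before it. The low median thus rests on the tenth stretch. Across the peaks of each part, Spearman's rho of score and width was 0.73 over 322 peaks on the right and 0.83 over 293 on the left. It was 0.37 over the 55 peaks of the tenth stretch, the lowest of the 10 full stretches, and 0.68 to 0.87 in the others. Over all peaks of a class rho was 0.87 on Het, 0.82 on the arms and 0.35 on Uextra, so the tenth stretch was nearest to Uextra. Score and width of a peak come from the same reads, so these values only describe the list.

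A few peaks on U broke the link between width and score. Wide but weak peaks, of 5 kb or more with a score under 200, numbered 6. The first 4 Mb, which held 45 of the 51 peaks of 5 kb or more on U, held all 6 of these weak ones. Among them U:165225-177477, the second widest on U at 12253 bp, scored 159.4, and U:1274839-1285627, at 10789 bp, scored 80.7 and ranked 494 of 615. Peaks of this kind made up 11.8% of those of 5 kb or more on U, 8.06% on Het and 11.1% on the arms. Narrow but strong peaks, under 2 kb with a score of 400 or more, numbered 5 of 116 on U (4.31%), against 0 of 315 on Het, 2 of 191 on the arms and 77 of 131 on Uextra (58.8%). In this share U as a whole lay nearer to Het and the arms than to Uextra. The tenth stretch taken by itself was nearer to Uextra in width, with a median of 1255 bp over all its peaks against 1236 bp on Uextra. The ninth, at 1575 bp, was also nearer to Uextra than to the pooled Het sequences or arms. The strongest of the 5 lay in the tenth stretch, 6704 bp apart. U:9150672-9151973 was 1302 bp wide and scored 1686, and U:9142812-9143967 was 1156 bp wide and scored 1055. A further one, U:9691686-9692873, 1188 bp wide with a score of 834.5, lay in the same stretch. Only 4 peaks of the tenth stretch scored 400 or more, so narrow peaks made up most of its strong ones, unlike U as a whole.

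The highest score on U, 2342, belonged to a peak of 8471 bp at U:5978018-5986488 in a run of 4 peaks. The second, at 1907, was 9057 bp wide and lay at U:81743-90799 in a run of 9 peaks. The third, U:2200834-2208602, scored 1777 and was followed by another peak after 77 bp, with 104690 bp free of peaks on its left. The fourth was U:9150672-9151973, the narrow peak of the tenth stretch described above. The fifth, U:2408095-2414528, scored 1655 and stood alone, 23141 bp from the nearest other peak. The remaining peaks among the 5 widest were strong ones. U:305769-318047 was the widest, at 12279 bp, and scored 959.6. U:2084311-2096143 measured 11833 bp and scored 1596, and U:418647-429495 measured 10849 bp and scored 1190. The last of these was separated from its left neighbour by 3 bp, the smallest distance on U.

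The peak-free distance between neighbouring peaks had a median of 5099 bp on U (interquartile range 1045 to 14410 bp), against 1252 bp on Het and 2817 bp on the arms. On Uextra it was longer than on U, at 6836 bp. With peaks closer than 1 kb joined the median distance was 8811 bp on U. Of the 614 distances on U 24.6% were under 1 kb, against 45.7% on Het and 31.1% on the arms. Very close ones, under 100 bp, made up 6.03% on U, 10.6% on Het and 7.11% on the arms. Long distances of 50 kb or more made up 4.89% on U, 1.64% on Het and 16.4% on the arms. Along U the share under 1 kb was 43.6% in the first stretch, near the Het value, and 7.32 to 18.0% in each of the 4 full stretches past 6 Mb.

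Joined across distances of at most 10 kb, the 615 peaks formed 210 runs, a mean of 2.93 peaks per run, against 7.39 on Het, 3.48 on the arms and 2.62 on Uextra. Runs of 10 or more peaks numbered 8 and held 19.5% of U peaks. Such runs held 59.6% of Het peaks and 47.0% of arm peaks, both above U, and 12.8% of Uextra peaks, below U. The number of such runs on U depended on the distance allowed, with 3 at 5 kb and 20 at 20 kb. Single peaks made up 13.3% on U, 2.02% on Het, 15.4% on the arms and 16.3% on Uextra. The longest run on U, U:475656-637264, had 36 peaks over 162 kb, with 51.5% of its bases inside peaks and scores from 50.90 to 1449. The next, U:338413-429495, had 17 peaks over 91.1 kb, 59.2% covered, and U:1891915-1983411 had 14 over 91.5 kb, 42.3% covered. All 3 lay in the first 2 Mb.

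Pooled over U, peaks in long runs were wider than single ones but scored much alike. Median width was 2102 bp for the 120 peaks in runs of 10 or more, 1962 bp in runs of 5 to 9, 1901 bp in runs of 2 to 4 and 1571 bp for the 82 single peaks. The median scores were 164.5, 169.8, 148.7 and 159.2 in the same order. Scores of 400 or more were reached by 22.5% of the peaks in the longest runs and by 17.1% of the single ones. Peaks of a run share their stretch of U and are not independent of each other.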

How the data were processed

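The 2 immunoprecipitations and 1 input of S2 cells entered as 1 list of 4751 peaks, in which, per the name of the deposited list, the immunoprecipitation libraries were merged and compared with the input. The score of each peak is as deposited by the authors, with no header to state its formula. The submitters' processing notes name Bowtie 0.12.5, FastQC 0.10.1, SAMtools, featureCounts, MACS 1.4 and 1.4.2 and build dm3, without roles or settings, so the treatment of reads that match several places, which bears on repeat-rich scaffolds, is not given in the sources used here.

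Width is the end minus the start as deposited, and printed positions are 1-based. The length of a sequence was taken as the right edge of its last peak. A midpoint put a peak in its window or stretch. Intervals are Wilson intervals for shares, exact Poisson intervals for densities and order-statistic intervals for medians. The regions named are the 5 highest-scoring and 5 widest peaks, the 5 fullest windows, the 5 longest empty stretches and the 3 longest runs, and the wide weak and narrow strong peaks were named after their values were seen. The functions for windows, distances, merging and runs were tested on simulated data. The peaks and the measures were chosen with earlier results of these data known. Calculations used Python 3.11.15, pandas 2.3.3, numpy 2.4.6 and scipy 1.17.1. Sequence and gene annotation of build dm3 were not used here.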

Additional observations from a re-analysis of the deposited data

How the results depend on the processing

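Of the 32 alternative values computed for the results on U, 15 stayed within the interval of the main value (for the number of runs, within 1.5 times) and 17 moved outside it, none of them turning a comparison of densities round. With only the peaks that score at least 100, U held 43.8 peaks per Mb over 12.9% of its bases, the median width was 2377 bp, the median score 215.9 and the median distance 7329 bp, and 3 runs had 10 or more peaks. Joining peaks closer than 1 kb gave 46.2 peaks per Mb, a median width of 2135 bp, a median distance of 8811 bp, 4 such runs and a density of 0.717 times that of Het. Runs depended on the distance allowed, with 3 at 5 kb and 20 at 20 kb, against 8 at 10 kb. Empty windows made up 19.4% at 50 kb and 1.96% at 200 kb, and the fullest 10% of 50 kb windows held 27.8% of peaks. Set against the arms outside the 5 Mb next to the centromere, without chromosome 4, U was 48.1 times as dense. These shifts follow from which peaks, windows or arm regions each alternative counts. No paired analysis was possible because only merged libraries were called, and for the same reason no replicate could be left out.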

Other observations

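Exact matches of both width and score were shared by 133 peaks of the list (2.80%). On U there were 17 of them (2.76%), of which 9 had their match on Uextra. Uextra held 2343 of the 4751 peaks of the list, so the 9 matches are not read as a link between U and Uextra. All 17 had low scores, 52.33 to 95.48, and widths of 993 to 1550 bp.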
